A study of Mus musculus with 6 samples.

Results

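Amino acid transporter genes of 7 solute carrier families (Slc1, Slc3, Slc6, Slc7, Slc36, Slc38 and Slc43) were compared between mouse lung endothelial cells that overexpress L1CAM and their vector controls. The set holds 32 genes of the 19938 tested. They are a fixed list of amino acid carriers from these families, put together with earlier results of these data known, and it does not hold every gene of the families. The rule for membership uses no measured value, and each gene was read from a probe set annotated with its symbol alone. Another 25 measured genes of the same families were left outside the list, and limma called 0 of them higher and 1 lower. Of all genes tested, 6.85% were called higher and 8.19% lower. Of the 25, 22 lay below the array medians on all arrays. L1CAM, studied most in the nervous system, is an adhesion protein with immunoglobulin domains. The L1CAM group was a line of cells on a C57BL/6 background that carried pcDNA3.1/Hygro(-) with full-length mouse L1CAM (spelled LICAM in the vector label), stably transfected. The control group was a line of the same cells with the empty vector, so both groups carry the hygromycin vector. Each group had 3 replicate cultures, labelled as biological replicates, and each culture was read on 1 Affymetrix array. All were grown on crosslinked gelatin for 4 days to confluence, in MCDB131 medium with 20% serum and 2 mM L-glutamine. The sample descriptions carry 1 line code per group and do not say whether a line was a pool or a clone, so an effect of L1CAM and a difference between the lines cannot be told apart.

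Amino acids cross membranes on carriers whose substrates overlap. Exchangers such as Slc7a5 and Slc1a5 swap an amino acid inside the cell for one outside, whereas the sodium-coupled carriers of the Slc38 family accumulate glutamine and other small neutral amino acids. Several Slc7 proteins are light chains that reach the cell surface only when bound to a heavy chain of the Slc3 family. When amino acids are scarce or the endoplasmic reticulum is stressed, kinases of the translation factor eIF2alpha raise the transcription factor ATF4, which is known to induce a group of these transporters together with amino acid synthesis enzymes. In endothelial cells this transport supplies protein synthesis, glutathione and, through arginine, nitric oxide.

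The arrays separated by their labels at the transfected gene: L1cam read 10.49, 10.60 and 10.73 in L1CAM replicates 1, 2 and 3, against 6.50, 6.77 and 7.31 in the control replicates (log2). L1CAM replicate 1 stood apart from its group. Across genes it correlated with the other L1CAM arrays at 0.9948 and 0.9951, whereas those correlated with each other at 0.9986 and control arrays with each other at 0.9982 to 0.9986. Its correlation with control replicate 1, 0.9952, was above those with its own group, and those with control replicates 2 and 3 were 0.9935 and 0.9938. All 10 endothelial markers examined, Pecam1, Cdh5 and Kdr among them, lay above the array medians on all 6 arrays. Their mean level was 11.27 to 11.31 in L1CAM arrays and 11.37 to 11.39 in control arrays. The dimmest, Vwf and Cldn5, read 6.82 to 6.88 and 6.79 to 7.13 over all arrays. In 8 of these 10 every L1CAM array lay below every control array, where 16.0% of all genes did, with a median difference of -0.08 over the 10. Of the 10, 1 was called, Cldn5, which was lower by -0.22. The part of this shift in the transporter results was not tested. Epithelial markers averaged 6.02 to 6.14 in L1CAM arrays and 6.07 to 6.10 in control arrays, with 3 of 8 above the medians. Leukocyte and macrophage markers averaged 6.52 to 6.74 and 6.64 to 6.78, with 3 of 7 measured above them. The brightest of these, Cd68 and Lyz2, read 12.00 to 12.38 and 7.11 to 8.56 over all arrays. Fibroblast and mural markers averaged 5.99 to 6.09 and 6.03 to 6.08, with 3 of 8 above the medians. Neuronal markers averaged 5.85 to 5.94 and 5.78 to 5.81, with 0 of 6 above the medians. None of these 4 lists had a called member by limma, and at an unadjusted p under 0.05 they held 1.

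Across the 7 families, 10 of the 32 transporter genes were higher in L1CAM cells and 2 were lower. The higher ones were the neutral amino acid exchangers Slc1a4 and Slc1a5, the glycine carrier Slc6a9, the CD98 heavy chain Slc3a2 with its light chains Slc7a5 and Slc7a11, the arginine and lysine carrier Slc7a1, and the glutamine carriers Slc38a1, Slc38a2 and Slc38a7. The lower ones were Slc7a7, a light chain that exports cationic amino acids, and Slc38a6. A gene was called when the moderated test of limma, fitted over all genes, gave a Benjamini-Hochberg adjusted p under 0.05. By that rule 15.0% of all genes were called, 6.85% as higher and 8.19% as lower. Of the 32 transporters 37.5% were called, and 31.2% were called higher. The list was put together with earlier results of these data known, so its share is no test of the families. Of the 25 measured family genes outside it, 0 were called higher and 1 lower, and 22 lay below the array medians on all arrays. The 3 L1CAM arrays lay above the 3 control arrays in 14 of the 32, where 18.6% of all genes did, and below them in 4, where 16.0% did (34.6% of all genes in either direction). Called members with a difference of at least 1 numbered 6 (Slc1a4, Slc6a9, Slc7a5, Slc1a5, Slc7a11 and Slc7a1), and 0.652% of all genes met this rule. The median difference of the 32 was 0.09 on the log2 scale and that of all genes 0.02. Whether more cells expressed these genes or each cell held more of their RNA cannot be told apart in RNA from whole cultures. Without the variance prior that limma shares across genes, an ordinary linear model called 0 of the 32 as higher and 1 as lower (Slc38a6). That model put 11 higher and 3 lower members at an unadjusted p under 0.05, and the adjusted p of the other 11 called members lay between 0.0505 and 0.102.

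**Figure D1:**
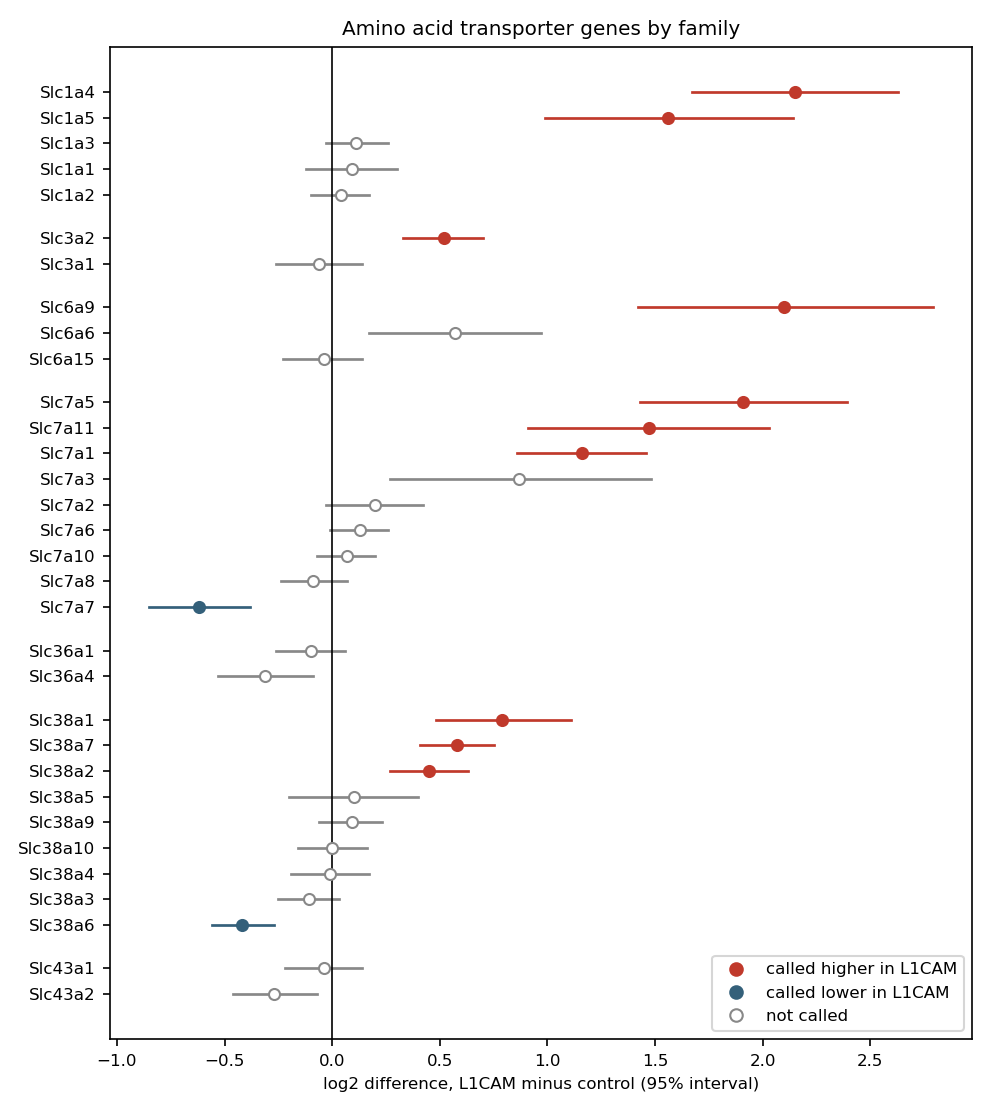
Log2 difference, L1CAM minus control, of each of the 32 transporter genes, grouped by family, with its 95% interval from limma (3 arrays per group). Filled red points are called higher, filled blue points called lower, and open grey points are not called. The 5 largest differences, between 1.47 and 2.15, belong to Slc1a4, Slc6a9, Slc7a5, Slc1a5 and Slc7a11.

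The Slc1 family splits into carriers of neutral amino acids and carriers of glutamate and aspartate, and the called members were both neutral carriers. Slc1a4 (ASCT1, chromosome 11, probe set 10384539) exchanges alanine, serine, cysteine and threonine. It read 10.76, 10.91 and 10.92 in L1CAM replicates 1, 2 and 3, against 9.25, 8.36 and 8.51 in the control replicates. The groups did not overlap, and the spread lay mostly in the controls, where replicate 1 was 0.81 above the mean of the other control arrays. The means were 10.86 ± 0.09 in L1CAM cells and 8.71 ± 0.47 in control cells (SD, n = 3 each), 4.45-fold higher or 2.15 in log2 units (SE 0.21), at an adjusted p of 0.00105 in limma. This was the largest change among the 32 and stood at rank 18 of the 1366 genes called higher.

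Slc1a5 (ASCT2, chromosome 7, probe set 10550332), an exchanger best known for glutamine uptake, read 10.31, 11.11 and 11.12 in L1CAM cells, against 9.69, 9.08 and 9.08 in control cells. Here replicate 1 of each group lay nearest to the other group: L1CAM replicate 1 was 0.81 below the other L1CAM arrays and control replicate 1 was 0.61 above the other controls. This made it 2.96-fold higher, by 1.56 in log2 units (SE 0.25), at an adjusted p of 0.00733 in limma. The glutamate and aspartate carriers Slc1a1, Slc1a2 and Slc1a3 read between 5.36 and 6.15 on all arrays, below every array median (6.55 to 6.58). They differed by 0.09, 0.04 and 0.11, with 95% intervals that together ran from -0.12 to 0.30, and limma called 0 of the 3, also at an unadjusted p under 0.05. No detection calls were used, so levels below the array medians were not shown to lie above background. Slc1a1 was called higher in 1 alternative, without L1CAM replicate 1 (0.19, adjusted p = 0.0382).

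The Slc3 family consists of the heavy chains that carry Slc7 light chains to the membrane. Slc3a2 (CD98 heavy chain, chromosome 19, probe set 10465772), which also binds integrins, read 12.97, 13.11 and 13.15 in L1CAM cells, against 12.69, 12.46 and 12.53 in control cells. Each L1CAM array lay above each control array, with gaps that were small beside those of Slc1a4. L1CAM cells were thus 1.43-fold higher, by 0.52 in log2 units (SE 0.08), at an adjusted p of 0.00623 in limma. Slc3a1 (rBAT), the heavy chain of the cystine transporter of kidney and intestine, read 5.62 to 5.93 on all arrays. It differed by -0.06, with a 95% interval of -0.26 to 0.14 (adjusted p = 0.731).

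Of the 6 light chains in the set, which all belong to Slc7, Slc7a5 and Slc7a11 rose and Slc7a7 fell. Slc7a5 (LAT1, chromosome 8, probe set 10582275), which takes up leucine and other large neutral amino acids, read 12.24, 12.48 and 12.46 in L1CAM cells, against 11.02, 10.20 and 10.23 in control cells. Control replicate 1 lay 0.81 above the other controls but still below every L1CAM array. This made it 3.77-fold higher, by 1.91 in log2 units (SE 0.21), at an adjusted p of 0.00169 in limma. Slc7a11 (xCT, chromosome 3, probe set 10498024), which imports cystine in exchange for glutamate and so feeds glutathione synthesis, read 12.10, 12.53 and 12.53 in L1CAM cells, against 11.49, 10.50 and 10.78 in control cells. The gap between L1CAM replicate 1 and control replicate 1 was the narrowest part of this separation. L1CAM cells were thus 2.76-fold higher, by 1.47 in log2 units (SE 0.24), at an adjusted p of 0.00825 in limma.

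Slc7a7 (chromosome 14, probe set 10419744) is the light chain that exports arginine and lysine in exchange for neutral amino acids and sodium. It read 10.49, 10.10 and 10.17 in L1CAM cells, against 10.84, 10.93 and 10.86 in control cells. All L1CAM arrays were below all control arrays, with L1CAM replicate 1 nearest to the controls. The difference was -0.62 (SE 0.10), 1.53-fold lower, at an adjusted p of 0.00829 in limma. The intervals of the remaining light chains included 0. Slc7a6, a relative of Slc7a7 with the same exchange, differed by 0.13 (95% interval -0.01 to 0.26, adjusted p = 0.197). Slc7a8 (LAT2), a second carrier of neutral amino acids, differed by -0.09 (-0.24 to 0.07, adjusted p = 0.449) and Slc7a10 (Asc-1) by 0.07 (-0.07 to 0.20, adjusted p = 0.532), and both read below the array medians on all arrays. The light chains thus covered a range from -0.62 to 1.91 around the 0.52 of their heavy chain Slc3a2. Whether any light chain changed by more or less than Slc3a2 was not tested.

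Slc7 also holds the cationic carriers, which work without a heavy chain. Slc7a1 (CAT1, chromosome 5, probe set 10535852), the main arginine carrier of endothelial cells, read 10.81, 11.28 and 11.19 in L1CAM cells, against 10.10, 9.83 and 9.88 in control cells. The groups were clearly apart relative to the spread within each. This made it 2.23-fold higher, by 1.16 in log2 units (SE 0.13), at an adjusted p of 0.00194 in limma. Slc7a3 (CAT3), a relative best known from brain, read 6.30, 7.25 and 7.33 in L1CAM cells, against 6.29, 5.87 and 6.10 in control cells. L1CAM replicates 2 and 3 were high and replicate 1 was level with the highest control. Its difference of 0.87 (95% interval 0.27 to 1.48) was not called (adjusted p = 0.0618), and without L1CAM replicate 1 it was 1.20 (adjusted p = 0.000176). Slc7a2 (CAT2) read 5.15 to 5.61 on all arrays and differed by 0.20 (-0.03 to 0.42, adjusted p = 0.237), or by 0.29 without L1CAM replicate 1 (adjusted p = 0.0324).

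Promoter sequences are shown for the 3 members in which a short motif bound by ATF4 together with C/EBP factors was found, all of them called. The motif searched was TGATGNAA on both strands, over 250 bases before and 50 after each annotated gene start (RefSeq, GRCm38.p6). It was present in 3.97% of the 32851 promoters in the RefSeq table and, counting any start of a gene, in 4.51% of 27025 genes. Promoters were given for 24 of the 32 transporter genes, and 3 of these held the motif: Slc7a11, Slc1a4 and Slc7a7. In capitals are the letters that match on either strand; a match on the opposite strand appears as its reverse complement. Slc7a11 lies on the minus strand (chr3:50443564-50443863) and has 2 matches, which start 66 and 47 bases before the gene start on opposite strands. Slc1a4, also on the minus strand (chr11:20332664-20332963), has 1 match that begins 4 bases before the start and runs across it. The upstream start of Slc7a7, again on the minus strand (chr14:54417895-54418194), has matches that begin 141 and 1 bases before it. A second annotated start of Slc7a7 has an overlapping window that holds 1 of these matches.
Slc7a11: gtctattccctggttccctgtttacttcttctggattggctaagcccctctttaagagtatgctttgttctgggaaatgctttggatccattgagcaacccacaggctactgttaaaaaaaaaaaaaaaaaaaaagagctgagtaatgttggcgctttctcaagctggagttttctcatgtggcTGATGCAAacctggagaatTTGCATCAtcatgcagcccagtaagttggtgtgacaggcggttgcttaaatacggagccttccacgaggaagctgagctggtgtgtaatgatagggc
Slc1a4: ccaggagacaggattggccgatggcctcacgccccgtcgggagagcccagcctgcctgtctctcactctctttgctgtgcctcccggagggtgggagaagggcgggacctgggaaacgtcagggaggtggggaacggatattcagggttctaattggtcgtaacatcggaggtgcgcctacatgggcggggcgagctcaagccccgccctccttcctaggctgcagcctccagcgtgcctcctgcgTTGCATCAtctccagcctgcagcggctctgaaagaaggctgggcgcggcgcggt
Slc7a7: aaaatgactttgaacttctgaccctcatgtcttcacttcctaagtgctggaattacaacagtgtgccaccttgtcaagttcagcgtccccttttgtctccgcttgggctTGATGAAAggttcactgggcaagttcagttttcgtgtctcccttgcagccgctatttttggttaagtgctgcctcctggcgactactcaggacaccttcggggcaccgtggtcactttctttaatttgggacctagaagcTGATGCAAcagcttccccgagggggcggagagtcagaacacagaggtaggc

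The motif was thus found beside genes that moved in both directions, since Slc7a11 and Slc1a4 were higher and Slc7a7 lower. Of the 7 called-higher members with a promoter in the table, 2 held it, and the other 5 (Slc3a2, Slc6a9, Slc7a1, Slc38a2 and Slc38a7) did not hold these letters within this window. A second motif, TGANNNNGC, the core that NRF2 recognises in antioxidant genes, was present in 16 of the 24 transporter genes and in 45.0% of all genes. Of the 7 called-higher members with a promoter, 6 held it, as did the lower members Slc7a7 and Slc38a6. The rest of the 16 were not called. Both motifs were found in Slc7a11, Slc1a4 and Slc7a7. These matches describe letters in a window, and binding was not measured.

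Among the Slc6 members, which move amino acids with sodium, Slc6a9 rose. Slc6a9 (GlyT1, chromosome 4, probe set 10507500), a glycine carrier, read 10.25, 11.05 and 11.04 in L1CAM cells, against 9.25, 8.25 and 8.51 in control cells. Replicate 1 of each group again lay nearest to the other group, 0.80 below the other L1CAM arrays and 0.87 above the other controls. L1CAM cells were thus 4.30-fold higher, by 2.10 in log2 units (SE 0.29), at an adjusted p of 0.00452 in limma, rank 21 of the 1366 genes called higher. Slc6a6, the taurine transporter, read 10.08, 9.47 and 9.44 in L1CAM cells, against 9.29, 8.96 and 9.03 in control cells. It was the reverse case, since L1CAM replicate 1 was the highest array, and its difference of 0.57 (95% interval 0.17 to 0.97) was not called (adjusted p = 0.0666). Without L1CAM replicate 1 it was 0.36 (adjusted p = 0.0288). Slc6a15, a neuronal carrier of neutral amino acids, read 3.96 to 4.25 on all arrays and differed by -0.04 (adjusted p = 0.785).

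The Slc38 family carries glutamine and other small neutral amino acids, at the cell surface and in lysosomes. Slc38a1 (SNAT1, chromosome 15, probe set 10431874) read 9.77, 10.22 and 10.26 in L1CAM cells, against 9.45, 9.21 and 9.20 in control cells, a difference of 0.79 (SE 0.14) or 1.73-fold (limma adjusted p = 0.0101). Its other probe set was dimmer and differed by 0.57 in the same direction. Slc38a2 (SNAT2, chromosome 15, probe set 10431894), known to be induced when amino acids are withdrawn, read 12.47, 12.72 and 12.69 in L1CAM cells, against 12.23, 12.16 and 12.15 in control cells. Its control arrays were tightly grouped, and the difference was 0.45 (SE 0.08) or 1.36-fold (limma adjusted p = 0.0103). Slc38a1 and Slc38a2 lost their calls without control replicate 2 (adjusted p = 0.0535 and 0.0531) and without control replicate 3 (adjusted p = 0.0539 and 0.0537).

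Slc38a7 (SNAT7, chromosome 8, probe set 10580957), which exports glutamine from lysosomes, read 9.13, 9.18 and 9.25 in L1CAM cells, against 8.74, 8.50 and 8.59 in control cells. The L1CAM arrays lay within 0.12 of each other (SD 0.06), and the gene was 1.49-fold higher, by 0.58 (SE 0.07), at an adjusted p of 0.00322 in limma. Slc38a6 (chromosome 12, probe set 10396383), a less well characterised member, read 7.98, 7.88 and 7.92 in L1CAM cells, against 8.27, 8.42 and 8.33 in control cells. It was lower on every L1CAM array, by -0.42 (SE 0.06) or 1.33-fold, at an adjusted p of 0.00555 in limma. The other 5 members differed by -0.11 to 0.10. They include Slc38a9, the lysosomal arginine sensor (0.09, adjusted p = 0.441), whose other probe set gave -0.08, and Slc38a10 (0.00, 95% interval -0.16 to 0.16). Slc38a3, Slc38a4 and Slc38a5 read below the array medians on all arrays.

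The Slc36 and Slc43 families had no called member, each with 0 of 2 by limma and 1 of 2 at an unadjusted p under 0.05. Slc36a4, a carrier of proline and tryptophan, read 10.17, 9.89 and 9.84 in L1CAM cells, against 10.32, 10.30 and 10.20 in control cells. It lay lower on all L1CAM arrays, by -0.31 (95% interval -0.53 to -0.09, adjusted p = 0.0658), and was called lower without L1CAM replicate 1 (-0.41, adjusted p = 0.00202), with array weights (-0.38) and once dim probe sets were dropped (-0.31, adjusted p = 0.0486). Slc36a1 (PAT1), its lysosomal relative, differed by -0.10 (-0.26 to 0.06, adjusted p = 0.389). Slc43a2 (LAT4), a facilitated carrier of large neutral amino acids, read 7.04, 6.88 and 7.14 in L1CAM cells, against 7.39, 7.20 and 7.27 in control cells, a difference of -0.27 (-0.46 to -0.07, adjusted p = 0.0727). Slc43a1 (LAT3) differed by -0.04 (-0.22 to 0.14, adjusted p = 0.784).

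**Figure D2:**
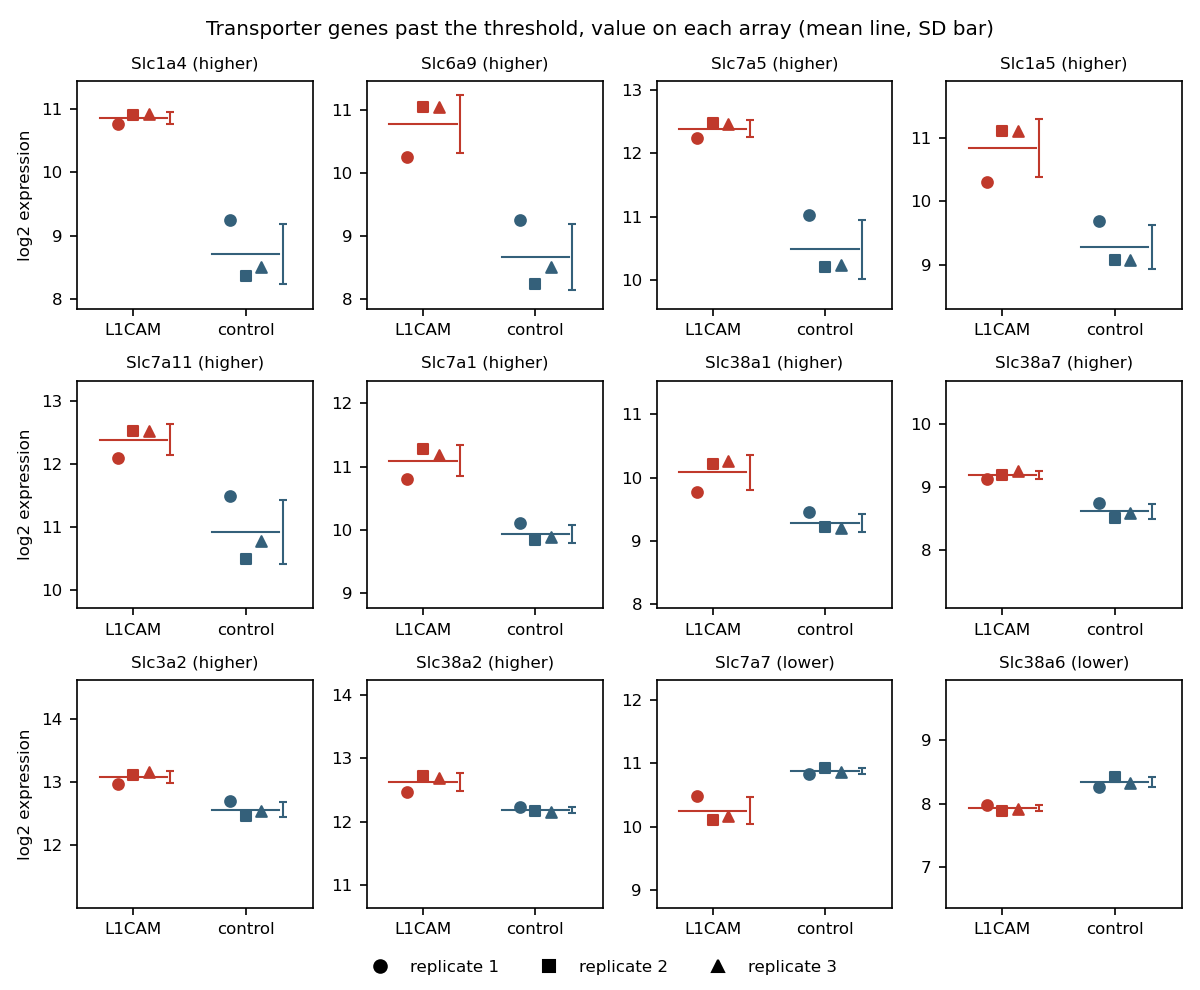
Log2 expression of the 12 called transporter genes on each array, L1CAM cells left and control cells right, with marker shape for the replicate number, a line at the mean and a bar of 1 SD (n = 3 arrays per group). Every panel spans the same height on the log2 axis, and in each the groups do not overlap, from Slc1a4 (2.15 higher) to Slc7a7 (-0.62) and Slc38a6 (-0.42).

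Families were described by counts and medians, and no test between them was made. Slc7 and Slc38 each had 3 of 9 members higher and 1 of 9 lower, Slc1 had 2 of 5 higher, Slc3 1 of 2 and Slc6 1 of 3, where 6.85% of all genes were higher and 8.19% lower. Medians over the members were 0.57 for Slc6, 0.23 for Slc3, 0.20 for Slc7, 0.11 for Slc1, 0.09 for Slc38, -0.15 for Slc43 and -0.21 for Slc36. These medians depend on which genes the list holds. With the other 25 measured genes added, the median was 0.05 over 15 Slc6 genes, 0.07 over 15 Slc7 genes, 0.09 over 7 Slc1 genes, 0.03 over 11 Slc38 genes, -0.03 over 4 Slc36 genes and -0.04 over 3 Slc43 genes, and that of Slc3 stayed at 0.23 over 2. On that wider count 1 of 15 Slc6 genes, 3 of 15 Slc7 genes, 2 of 7 Slc1 genes and 3 of 11 Slc38 genes were higher. Within Slc1, Slc3, Slc6 and Slc7 the members spanned 0.04 to 2.15, -0.06 to 0.52, -0.04 to 2.10 and -0.62 to 1.91. All 12 called members lay above the array median on all 6 arrays, whereas 12 of the 20 others lay below it on all 6. Across all 19938 genes, 8168 lay below the medians on all 6. Of the 1366 genes called higher, 1210 lay above the median on 3 or more arrays, as did 1531 of the 1633 called lower. Calls thus fell mostly on brighter genes across the arrays as well. In the fit limited to probe sets above the median of 3 or more arrays, 19 members remained and 13 were called, where 30.0% of all genes kept were. A gene can pass this filter through its higher group alone, so no comparison of the members is drawn from that fit.

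The order of the arrays was shared by the higher members. In all 10, L1CAM replicate 1 was the lowest L1CAM array and control replicate 1 the highest control array, an order seen in 41.7% of all genes called higher and in 14.7% of all genes. Set against the mean of the control arrays, the median of the 10 stood at 0.95, 1.47 and 1.43 in L1CAM replicates 1, 2 and 3 and at 0.29, -0.16 and -0.11 in control replicates 1, 2 and 3. The replicate 1 arrays thus differed by less than the others. The groups did not overlap in any of the 10, but these genes were picked by their calls, so this is no separate evidence. Leaving out both replicate 1 arrays, an alternative chosen after the data were seen, kept all 12 calls and added Slc6a6, Slc7a3 and Slc36a4. Without L1CAM replicate 1 alone 14 members were higher and 3 lower, and with any other single array left out 8 to 10 were higher and 2 lower. Slc1a4, Slc1a5, Slc3a2, Slc6a9, Slc7a1, Slc7a5, Slc7a11, Slc38a7, Slc7a7 and Slc38a6 were called in all 6 of these fits.

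**Figure D3:**
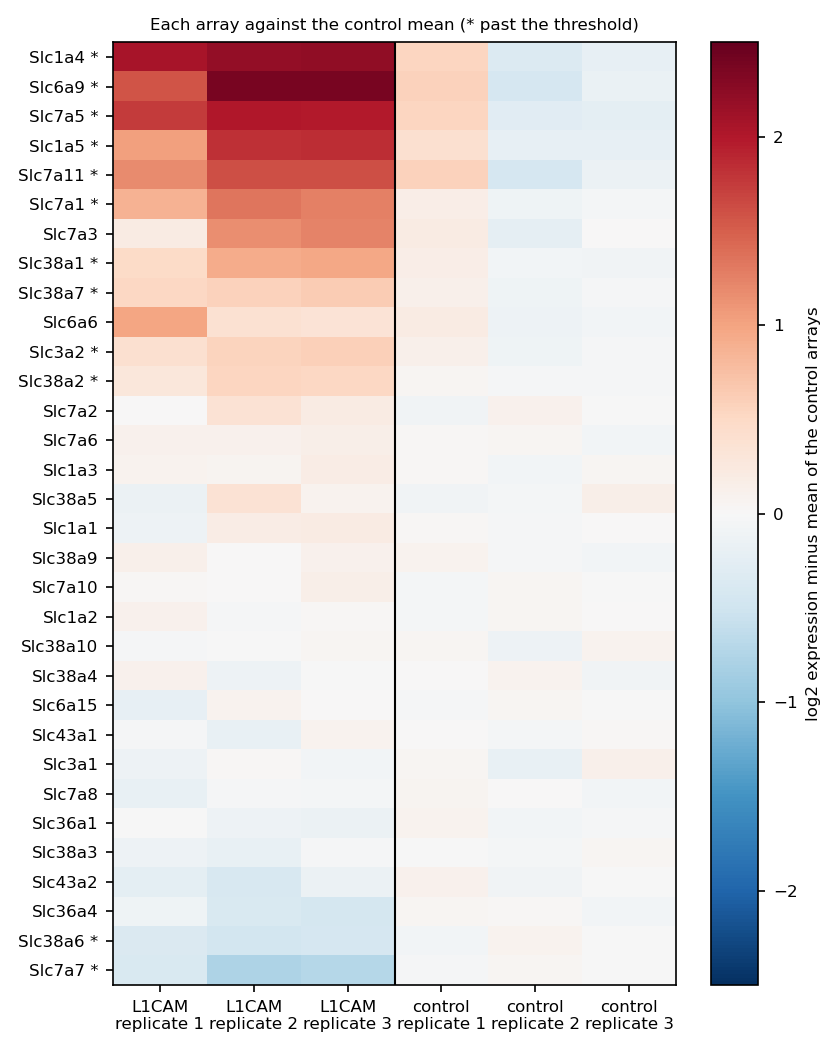
Log2 expression of each of the 32 transporter genes on each array minus its mean over the 3 control arrays, with L1CAM arrays in the left columns and control arrays in the right. Genes are sorted by the difference between groups, an asterisk marks the 12 called genes, and red is above and blue below the control mean. The 10 genes called higher are paler in L1CAM replicate 1 than in replicates 2 and 3 and slightly red in control replicate 1.

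Genes of the same pathways were read from lists of related genes. These lists too were chosen with earlier results of these data known, so their shares are no test of the pathways. Among 25 measured genes of the 7 families outside the 32, 0 were higher and 1 was lower (Slc6a8, the creatine transporter, -0.25, limma adjusted p = 0.0254), with a median of 0.03. At an unadjusted p under 0.05, 1 was higher and 3 were lower, and 22 of the 25 lay below the array medians on all arrays. Of 20 amino acid carriers from other families, 2 were higher and 2 lower, with a median of 0.05. This is a share of 20.0%, near the 15.0% of all genes. Slc16a10, a facilitated carrier of aromatic amino acids, read 8.09, 8.15 and 8.11 in L1CAM cells, against 8.70, 8.86 and 8.94 in control cells, and was lower by -0.72 (limma adjusted p = 0.00121). Mfsd12, which brings cysteine into lysosomes, was lower by -0.51 (adjusted p = 0.00397). Slc25a22, a mitochondrial glutamate carrier (0.37), and Slc17a7, a vesicular glutamate carrier that read below the array medians (0.22), were called higher. With each array left out in turn, Slc16a10 and Mfsd12 were called in all 6 fits, and Slc6a8, Slc25a22 and Slc17a7 in 1 of them, that without L1CAM replicate 1.

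Among 21 genes of the eIF2alpha kinases and the ATF4 response, 14 were higher and 0 lower, with a median of 0.85. This is a share of 66.7%, beside 15.0% of all genes. As the list was chosen with earlier results of these data known, this share is no test of the response. Among genes above the array median on 3 or more arrays, as 20 of the 21 were, 24.0% were called. A gene can pass that filter through its higher group alone, so the 24.0% is only a rough reference. The 4 lower at an unadjusted p under 0.05 were not called, and array weights called 2 lower. Trib3, a pseudokinase induced by ATF4, read 9.87, 10.73 and 10.74 in L1CAM cells, against 8.21, 7.70 and 7.60 in control cells. The difference was 2.61, followed by the glutathione-degrading enzyme Chac1 at 2.10 and the transcription factors Atf5 at 1.94 and Ddit3 at 1.67. In all 14, L1CAM replicate 1 was the lowest L1CAM array, and in 13 control replicate 1 was the highest control, as in the transporters. Among all genes called higher, L1CAM replicate 1 was lowest in 70.0%, control replicate 1 highest in 59.8%, and both held in 41.7%. The 14 were picked by their calls, so this order is no separate evidence. With single arrays left out, 10 to 14 were higher, and the ordinary linear model called 3 higher and 1 lower. Among 18 measured amino acid synthesis enzymes, 9 were higher and 1 lower, a share of 55.6% with a median of 0.53. The same limit on the choice of genes holds for this share. The ATF4 and enzyme lists share Asns, asparagine synthetase. Bcat1, which acts on branched-chain amino acids, was higher by 2.26, Gpt2 by 1.62, the serine synthesis enzyme Psph by 1.49 and Aldh18a1, of proline synthesis, by 1.11. The lower one was Glul, glutamine synthetase, at 11.04, 10.27 and 10.31 in L1CAM cells, against 11.23, 11.26 and 11.21 in control cells (-0.70, limma adjusted p = 0.0442), a call kept in 1 of the 6 fits with an array left out. With single arrays left out 7 to 10 enzymes were higher, and the ordinary linear model called 5.

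Among 32 measured genes through which lysosomal amino acids act on mTORC1, 3 were higher and 5 lower, with a median of 0.07. The share called was 25.0%, where 15.0% of all genes were called. It was near the 24.0% of genes above the array median on 3 or more arrays, as 31 of the 32 were. The same limit of that filter holds here. Rraga (0.57) and Rragb (0.28), Rag GTPases, and Sesn2 (0.54), a leucine-binding protein that the ATF4 list also holds, were higher. Sesn3 read 8.20, 7.87 and 7.75 in L1CAM cells, against 8.94, 8.98 and 9.01 in control cells, and was lower by -1.03 (limma adjusted p = 0.00158). Its relative Sesn1 (-0.49), Castor2 of the arginine sensor family (-0.48) and Depdc5, of the complex that restrains mTORC1 (-0.29), were also lower, so the sestrins did not move one way. In the 6 fits that each lacked 1 array, Sesn3 and Castor2 were called every time, and the other genes named here were not. Without control replicate 2 or 3, limma called 0 genes of this list higher and 2 lower, and without L1CAM replicate 2 or 3 it called 1 higher and 2 lower. Without L1CAM replicate 1 it called 5 higher and 6 lower, and without control replicate 1 it called 4 higher and 3 lower. The ordinary linear model called 0 in either direction, where limma called 3 higher and 5 lower. At an unadjusted p under 0.05, limma put 8 higher and 5 lower.

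**Figure D4:**
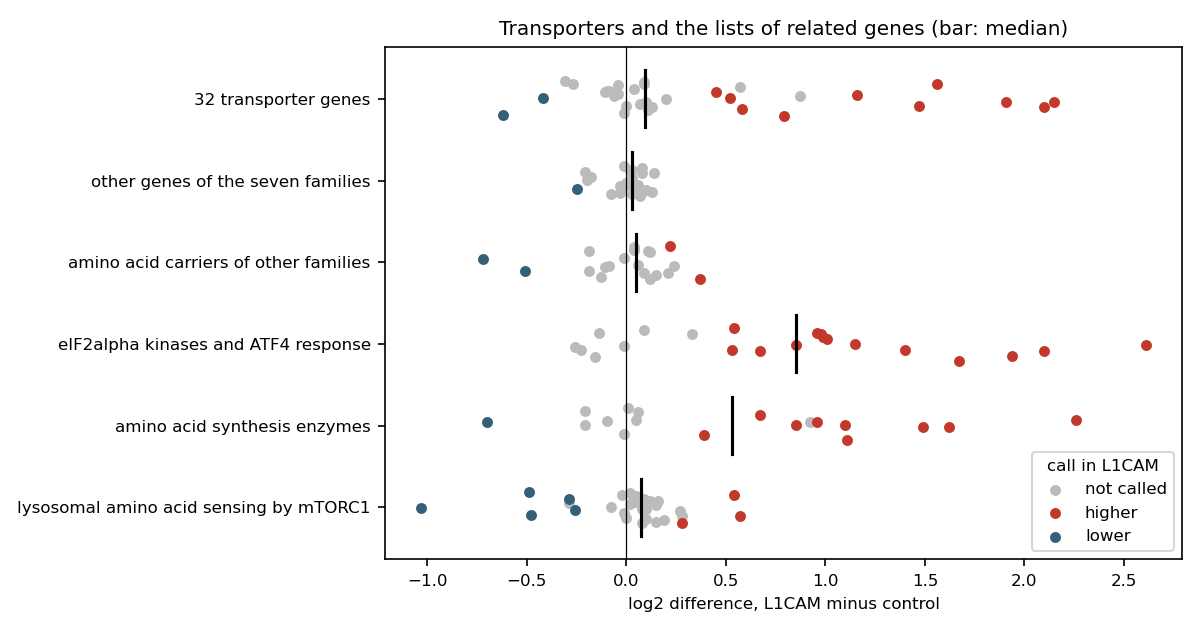
Log2 difference, L1CAM minus control, of the 32 transporter genes and of the measured genes of the related lists, 1 point per gene and a black bar at each median. Red points are called higher, blue points called lower and grey points not called. The medians are 0.85 for the ATF4 list and 0.53 for the synthesis enzymes, and 0.03 to 0.09 for the others.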

How the data were processed

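Expression was measured in 3 L1CAM and 3 control cultures, 1 Affymetrix array each. The deposited values are log2 expression per probe set, which, per the submitters' processing notes, the authors obtained by RMA using version 1.1 of Affymetrix Expression Console. RMA shrinks differences of dim probe sets. Other settings, and the array's genome build, were not given in the sources used here. Array medians lay between 6.55 and 6.58, and the number of arrays limits the precision. Of 35512 probe sets, 21789 had 1 gene symbol, 1621 several and 12102 were not listed. Where several probe sets named 1 gene, the brightest on average was kept, which gave 19938 genes. Symbols came from the platform annotation, and the GRCm38.p6 RefSeq table changed 0 of them.

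Groups were compared in limma 3.58.1 (R 4.3.3; lmFit, then eBayes), group as the only term, two-sided, Benjamini-Hochberg adjusted over all genes, threshold 0.05. Differences are L1CAM minus control, SE is moderated, and intervals are at 95%. Values are given on every array for called members. Of each related list, up to 4 called genes per direction are named by size. The members and lists were chosen with earlier results of these data known. Cldn5, Vwf, Cd68, Lyz2, Asns and the members singled out for a lost or gained call were named after their values were seen. The wider family medians were added then too. The test was tried on simulated data. Alternatives changed the normalization, the filter, the choice of probe set, the variance prior, the array weights and the arrays included. The labels state no pairing by replicate number. Deviations of same-numbered arrays correlated at -0.10, -0.10 and -0.03, which cannot show whether cultures were handled in pairs. Promoters are RefSeq's, GRCm38.p6. Python 3.11.15, pandas 2.3.3 and matplotlib 3.10.9 made tables and figures.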

Additional observations from a re-analysis of the deposited data

How the results depend on the processing

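The 12 transporter calls were the same genes after quantile normalization again, with array medians set to 0, with each gene's probe sets averaged and with an intensity trend in the variance prior. They also remained called, with 1 to 3 members added, under the filter on dim probe sets (10 higher, 3 lower), array weights (12 and 3) and the replicate block (11 and 2, Slc6a6 added). The block called 2067 genes in all, and the labels state no pairing by replicate number. The ordinary linear model called 581 genes, with 0 members higher and 1 lower. Array weights called 5191 genes. With single arrays left out, 1033 to 4952 genes were called, 8 to 14 members higher and 2 to 3 lower; the highest values came without L1CAM replicate 1. Without both replicate 1 arrays 4736 genes were called. Signs turned in uncalled members near 0: Slc6a15 with array weights (0.0041), Slc38a10 with medians set to 0 (-0.0024) and Slc3a1 (0.0005) and Slc6a15 (0.026) without both replicate 1 arrays. With single arrays or both replicate 1 arrays left out, Slc1a2 spanned -0.0156 to 0.07, Slc3a1 -0.14 to 0.0085, Slc6a15 -0.10 to 0.0412, Slc38a4 -0.07 to 0.0495, Slc38a5 -0.028 to 0.23, Slc38a10 -0.06 to 0.0412 and Slc43a1 -0.10 to 0.0319. The causes were not tested. Detection calls were not used, so whether the 12 members below the medians of all arrays lay above background was not tested.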
